A study of Mus musculus with 8 samples.

Results

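The primary granule and lysozyme genes are 9 mouse genes, Mpo, Elane, Prtn3, Ctsg, Ctsc, Cst7, Srgn, Lyz1 and Lyz2, out of 21738 protein-coding genes. A chromatin loop, that is, a pair of 5 kb bins of the genome with more contacts than expected, was taken as a loop of one of these genes when 1 of its bins held the start site of the gene's canonical transcript in the mouse assembly GRCm39. The rule that finds their loops uses positions and no measured value. The 9 start sites lay in 9 different bins, so that no loop was counted for a gene because it shared a bin with another. Of the 9 genes, 7 had a loop in at least 1 of the 4 lists of loops, as did 10513 of all 21738 protein-coding genes. The 7 genes held 93 distinct loops of 214313.

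HPC-7, the cells used, are a line of blood progenitors from the mouse. In HiChIP, crosslinked chromatin is cut, here with MNase, captured with an antibody, and its neighbouring ends are ligated and sequenced as pairs. The antibody recognised H3K27ac, an acetylated histone found at active regulatory DNA. The 4 groups, with 2 libraries each, were p30 UT and p30 LPS, on the one hand, and p42 UT and p42 LPS on the other; lists of 4 values follow this order where no group is named. The p42 cells expressed full-length CEBPA, a transcription factor of granulocyte development, and the p30 cells expressed its shorter, leukaemia-associated isoform. UT cells, called untreated here, received no LPS, and LPS cells were exposed to 100 ng/mL of bacterial lipopolysaccharide for 2 h. According to the study's methods, the isoforms were introduced with retroviral vectors that also carry GFP, and sorted cells were used. The lines called p42 HPC-7 and p30 HPC-7, names that the study also uses for HiChIP, carried fusions to ERT2, which enter the nucleus after 4-hydroxytamoxifen. Constitutive versions are named as such. By the same methods, cells with the fusions were given 4-hydroxytamoxifen before an experiment, so that UT would mean without LPS and not without any treatment. The HiChIP labels do not name the vector, and whether a line came from 1 clone is not given in the sources used here. All groups carry the cells' own low level of Cebpa, and no group with an empty vector was part of the comparison.

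Primary (azurophil) granules are lysosome-related stores that form at the promyelocyte stage of granulocyte development. They are packed with the haem enzyme myeloperoxidase and with serine proteases, which the proteoglycan serglycin retains inside the granule. The genes of these proteins are classical targets of CEBP factors, MYB, RUNX1 and PU.1 in early myeloid cells. Myeloperoxidase (Mpo) makes hypochlorous acid, whereas neutrophil elastase (Elane), proteinase 3 (Prtn3) and cathepsin G (Ctsg) cut proteins. Cathepsin C (Ctsc) activates these proteases by removing a short peptide from their ends, and cystatin F (Cst7) inhibits cathepsin C and related enzymes. Serglycin (Srgn) is the granule proteoglycan, and Lyz1 and Lyz2 encode the lysozymes of the mouse, which break down bacterial cell walls.

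The 4 lists held between 78591 and 158233 loops, the longest being that of p42 UT, and rested on 14503330 to 18999991 modelled contacts. Loops per gene were therefore compared in lists of equal size, each limited to the 78591 loops with the smallest q-values. Each list pools both libraries of a group, so no spread between replicates is available: every test given here compares lists and not conditions, and every interval covers counting error only. In bulk cells, fewer cells with a loop and fewer contacts per cell cannot be told apart. The contacts of a pair that is missing from a list are unknown. The labelled cell type was checked on marker genes. All 10 progenitor markers had a loop in every list, against 3 to 5 of 9 late neutrophil markers, 1 or 2 of 5 macrophage markers, 1 or 2 of 4 B cell markers, 0 or 1 of 4 T cell markers, 1 to 3 of 4 erythroid markers and 0 or 1 of 4 fibroblast or hepatocyte markers.

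The promoters of the peroxidase gene, of both adjacent protease genes and of the lysozyme gene with loops in 3 lists are shown first, since they hold the sites that the loops start from. Each is the 250 bases upstream of the start site in the direction of the gene, read from GRCm39 at chr11:87684157-87684406 (Mpo, plus strand), chr10:79721831-79722080 (Elane, plus strand), chr10:79715198-79715447 (Prtn3, plus strand) and chr10:117128776-117129025 (Lyz1, minus strand), and overlaps no annotated exon. Capitals mark matches, on either strand, to the letters of 5 motifs: TTNNGCAA (CEBP), GAGGAA (PU.1 and other ETS factors), AACTG (MYB), TGTGGT (RUNX) and TGANTCA (AP-1).
Mpo: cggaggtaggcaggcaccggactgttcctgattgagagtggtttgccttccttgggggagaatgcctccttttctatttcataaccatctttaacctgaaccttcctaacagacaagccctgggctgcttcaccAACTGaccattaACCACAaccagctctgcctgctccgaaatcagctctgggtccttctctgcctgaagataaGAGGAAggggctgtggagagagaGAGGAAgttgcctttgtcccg
Elane: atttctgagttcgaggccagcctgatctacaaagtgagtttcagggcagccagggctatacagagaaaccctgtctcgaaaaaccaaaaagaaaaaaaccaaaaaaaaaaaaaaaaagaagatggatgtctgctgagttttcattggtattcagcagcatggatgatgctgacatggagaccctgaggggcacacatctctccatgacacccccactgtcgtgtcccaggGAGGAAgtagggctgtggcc
Prtn3: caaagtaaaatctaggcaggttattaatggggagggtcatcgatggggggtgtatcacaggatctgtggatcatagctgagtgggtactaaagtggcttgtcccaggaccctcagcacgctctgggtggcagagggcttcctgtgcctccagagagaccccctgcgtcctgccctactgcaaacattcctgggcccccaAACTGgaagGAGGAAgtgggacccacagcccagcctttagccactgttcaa
Lyz1: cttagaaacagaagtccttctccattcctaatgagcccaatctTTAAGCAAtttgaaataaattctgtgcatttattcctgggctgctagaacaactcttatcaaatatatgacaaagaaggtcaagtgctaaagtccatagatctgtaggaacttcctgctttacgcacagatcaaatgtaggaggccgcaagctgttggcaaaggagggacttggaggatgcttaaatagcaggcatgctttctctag
Mpo, Elane and Prtn3 each carried GAGGAA close to the start site: its first base lay at -44 and -21 in Mpo, at -20 in Elane and at -42 in Prtn3. Over windows from 250 bases before to 50 after the start, GAGGAA was found in 6 of the 9 genes and in 27.6% of the 21738 promoters. AACTG was found in 5 of the 9 and in 43.7% of promoters, and TGTGGT in 5 of the 9 and in 15.3%. TTNNGCAA was found in Lyz1 alone of the 9 and in 10.7% of promoters, and TGANTCA in none of the 9 and in 7.15%. Matching letters are a description of the sequence and not bound sites.

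The 5 kb start-site bin of Mpo held 7 matches to TTNNGCAA, all upstream of the promoter window above. As many were found in 0.936% of the 64985 H3K27ac peak bins of the lists, whose median was 2. They are shown because Mpo is the gene with a call in all 4 comparisons of contacts described below. Each is printed with 10 bases on both sides, on the plus strand, where capitals mark the match, some of which read on the other strand, and the name gives the first base relative to the start site; the first window lies at chr11:87680020-87680047.
Mpo -4377: ctcttgcattTTAGGCAAgcactctacc
Mpo -3680: gacatgaatgTTAGGCAAgacaagtccc
Mpo -3334: aagagaaatcTTTTGCAAccagtagctg
Mpo -2234: ctgtccgctgTTGCCCAAagcacagcat
Mpo -1903: atgaggggcaTTCGGCAAtacattctga
Mpo -1875: agccctaaaaTTGTGCAAgcccaatttt
Mpo -1714: ctgagacttcTTGCCTAAggacacaacc
The start-site bin of Cst7 also held 7 such matches, against 4 for Ctsc, 2 each for Ctsg, Lyz1 and Lyz2, 1 each for Elane and Srgn, and none for Prtn3. For TGANTCA the highest number was that of Srgn, whose bin held 4 matches downstream of the start site, a number reached by 7.48% of peak bins. The first of them lies at chr10:62342464-62342490, and they are printed on the minus strand, along the gene.
Srgn 1108: tcagtcatgcTGACTCAacctcaaact
Srgn 1292: aaggaaatgtTGAGTCAcagcgacata
Srgn 1582: cttttcccttTGACTCAgaattcaagt
Srgn 2393: cagatgtttgTGAGTCAcccagagatt

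The 9 genes fell into 3 groups by their loops. Mpo, Elane, Prtn3, Srgn and Cst7 had loops in all 4 lists, Lyz1 had a loop in 3 lists and Lyz2 in p42 UT, and Ctsg and Ctsc had none. Together the genes had 51 loops without and 60 with LPS in p30 cells and 83 and 56 in p42 cells, which became 51, 55, 61 and 56 in lists of equal size. Of the 93 distinct loops, 38 (40.9%) were in all 4 lists, and 20 (21.5%) were in p42 UT alone, the longest list. Over all 214313 distinct loops these shares were 14.5% and 28.7%. Of the 20, 4 remained in the p42 UT list of equal size. The partner bins lay over a coding exon in 74 cases, and 26 held the start site of another protein-coding gene. Upstream partners numbered 50 and downstream partners 43.

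**Figure D1:**
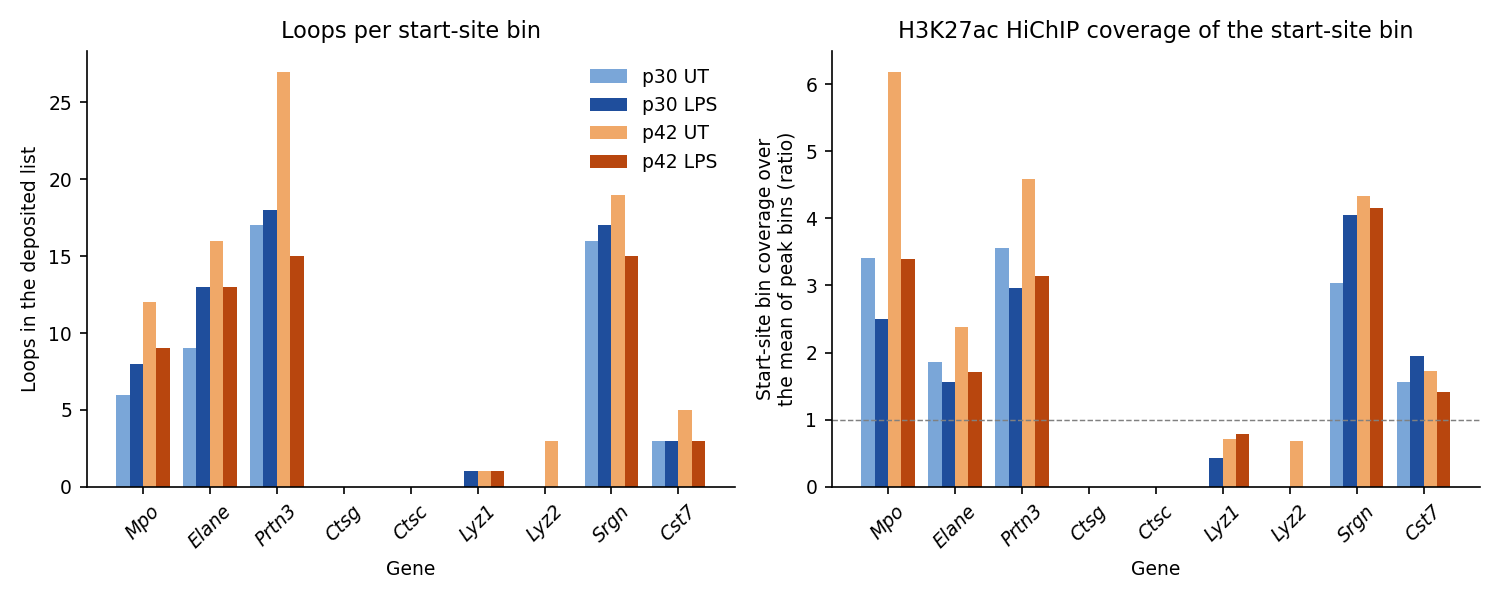
Left, number of loops of each start-site bin in the 4 deposited lists; right, reads of the start-site bin over the mean of H3K27ac peak bins of the same list (ratio, dashed line at 1). Where no bar is drawn on the right the bin is in no loop of that list and its coverage is unknown; Mpo in p42 UT reached 6.19, above the other lists and genes shown.

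Mpo, the myeloperoxidase gene on chromosome 11, had 6 loops in untreated p30, 8 in p30 after LPS, 12 in untreated p42 and 9 in p42 after LPS. Its start-site bin (chr11:87680001-87685000) held 8201 reads without and 5589 with LPS in p30 cells and 18014 and 6570 in p42 cells. Relative to the mean peak bin of the same list, this coverage was 3.41, 2.50, 6.19 and 3.39. It was thus highest in p42 UT, where 99.8% of listed peak bins had no more reads, and lowest in p30 LPS, where this was 91.5%. Most of the bin is upstream sequence, since the start site lies 593 bases before its end. Within 50 kb, 5 of 13 bins listed in both untreated groups had at least 1.5-fold higher relative coverage in p42 UT, the start-site bin and the 4 bins next to it upstream, and none had as much in p30 UT.

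All but 1 of the 13 distinct partner bins of Mpo lay upstream of it. Those at 10, 15, 20, 25 and 30 kb were in all 4 lists and lie over Tspoap1, a gene of a protein that binds the mitochondrial translocator protein. The bin 30 kb upstream (chr11:87650001-87655000), which holds the Tspoap1 start site, stood out in contacts over expected, the ratio of observed contacts to the number that the loop caller expects from distance and coverage. It had 50 contacts in untreated p30, 34 in p30 after LPS, 158 in untreated p42 and 52 in p42 after LPS, or 6.99, 6.96, 14.8 and 7.96 times the expected number. The value in p42 UT was thus about double that of each other list, which lay close together. Most contacts in all lists were with the bin 10 kb upstream (119, 74, 228 and 107, in the same order), where contacts over expected were 2.58, 2.59, 2.88 and 2.47. The bin 35 kb upstream holds Mir142 and its host gene, a microRNA locus of blood cells; p30 UT lacked this loop, and the p30 LPS list had 20 contacts, p42 UT 61 and p42 LPS 39. More distant partners were few. The start site of Rnf43, a ubiquitin ligase gene, lies 125 kb upstream and was a partner in p42 UT and p42 LPS, with 16 and 10 contacts. That of Mtmr4, a lipid phosphatase gene, lies 200 kb upstream and was a partner in p30 LPS and p42 UT, with 9 and 13 contacts. The bin 15 kb downstream, which overlaps the ends of Mpo and of the lactoperoxidase gene Lpo, was listed in both LPS groups, with 36 contacts for p30 and 37 for p42.

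**Figure D2:**
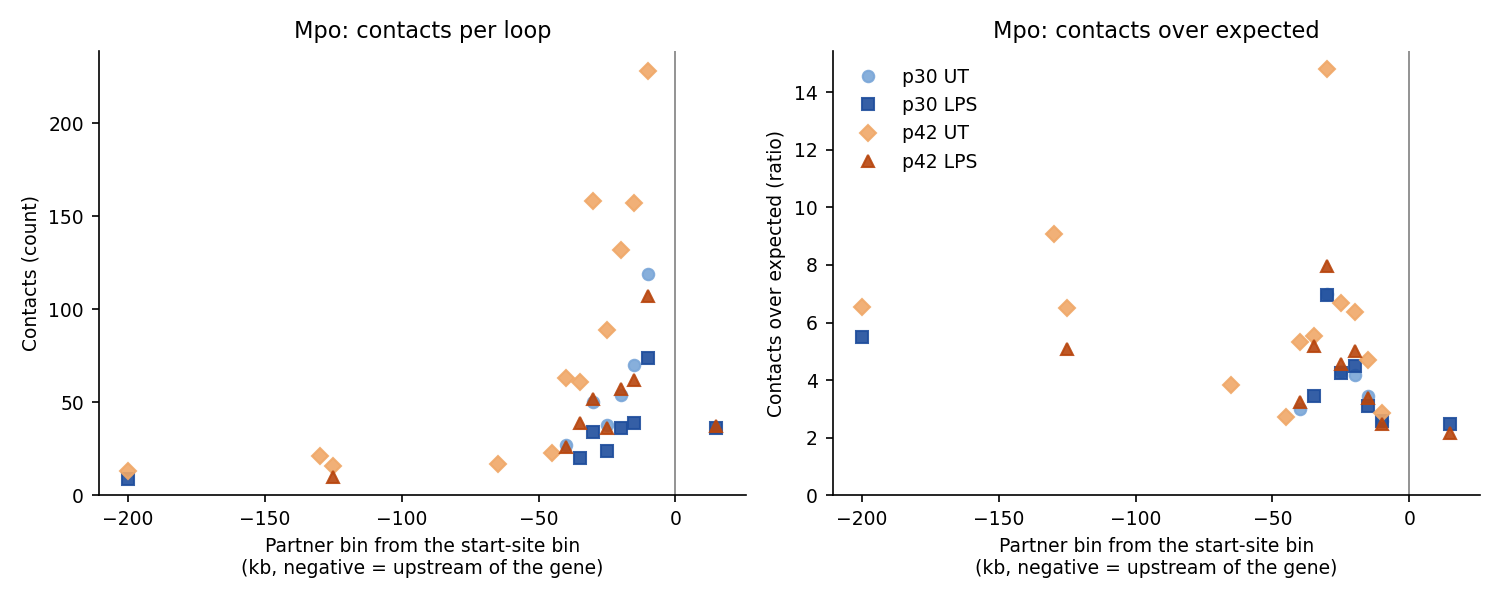
Contacts (left, count) and contacts over expected (right, ratio) of each Mpo loop against the distance of its partner bin from the start-site bin (kb, negative upstream), 1 symbol per list. The bin 30 kb upstream reached 14.8 times the expected contacts in p42 UT and between 6.96 and 7.96 in the other lists.

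Prtn3 and Elane, which encode proteinase 3 and neutrophil elastase, lie side by side on chromosome 10, and their start-site bins are adjacent. They are too close to be tested as a pair, since the lists start at 10 kb. Prtn3 had 17 loops without and 18 with LPS in p30 cells and 27 and 15 in p42 cells, and Elane had 9, 13, 16 and 13. In lists of equal size, Prtn3 had 17, 17, 17 and 15 loops and Elane 9, 11, 12 and 13. Of the partner bins, 17 were shared, which is 94.4% of the 18 of Elane and 51.5% of the 33 of Prtn3. Both genes thus contacted largely the same surroundings, and Prtn3 had further partners of its own.

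The start-site bin of Prtn3 (chr10:79715001-79720000) held 8566 reads in untreated p30, 6620 in p30 after LPS, 13340 in untreated p42 and 6092 in p42 after LPS, or 3.56, 2.96, 4.58 and 3.14 times the mean peak bin. That of Elane (chr10:79720001-79725000) held 4462, 3507, 6917 and 3314 reads, or 1.85, 1.57, 2.38 and 1.71 times the mean. Both bins were thus highest in p42 UT and lowest in p30 LPS on this scale. The order of the 4 lists was the same for both genes, and in each list the Prtn3 bin held more reads.

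Most partners of both genes lay downstream, 23 of 33 for Prtn3 and 13 of 18 for Elane. The strongest partner of Prtn3 by contacts was the bin 10 kb downstream (chr10:79725001-79730000) with the start site of Cfd, the gene of complement factor D, itself a serine protease. It had 97 contacts without and 80 with LPS in p30 cells and 140 and 82 in p42 cells, at 2.15 to 2.47 times the expected number. Farther downstream, both genes contacted in at least 3 lists the start sites of Med16, a subunit of Mediator, of R3hdm4 and Kiss1r, which share a bin, and of Arid3a, a DNA-binding protein. Prtn3 also contacted that of Ptbp1, a splicing regulator, upstream, in all 4 lists, and Elane that of Plppr3 in 3. With the bin that holds the Arid3a start, Prtn3 had 28 contacts in untreated p30, 35 in p30 after LPS, 56 in untreated p42 and 31 in p42 after LPS, or 4.84, 8.38, 8.19 and 6.21 times the expected number. With the same bin Elane had 26, 19, 44 and 18 contacts, or 4.99, 4.92, 7.03 and 3.96 times. The pair of the Prtn3 start with the Arid3a body 75 kb downstream reached the highest ratio of the gene, 9.98 in p30 LPS, against 8.53 in p30 UT, and stood at 6.92 and 9.03 in the p42 lists. That partner bin was thus lowest in p42 UT, unlike the bins around 40 kb. Of the 33 Prtn3 loops, 10 (30.3%) were in p42 UT alone, close to the share of all loops, and 1 of the 10 remained in the list of equal size. The strongest partner of Elane was the bin 10 kb upstream, which holds the start of Plppr3 and an exon of a Prtn3 transcript that starts farther upstream, with 75 contacts in p30 cells after LPS and 133 and 68 in the p42 lists, at 1.75 to 2.01 times the expected number.

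**Figure D3:**
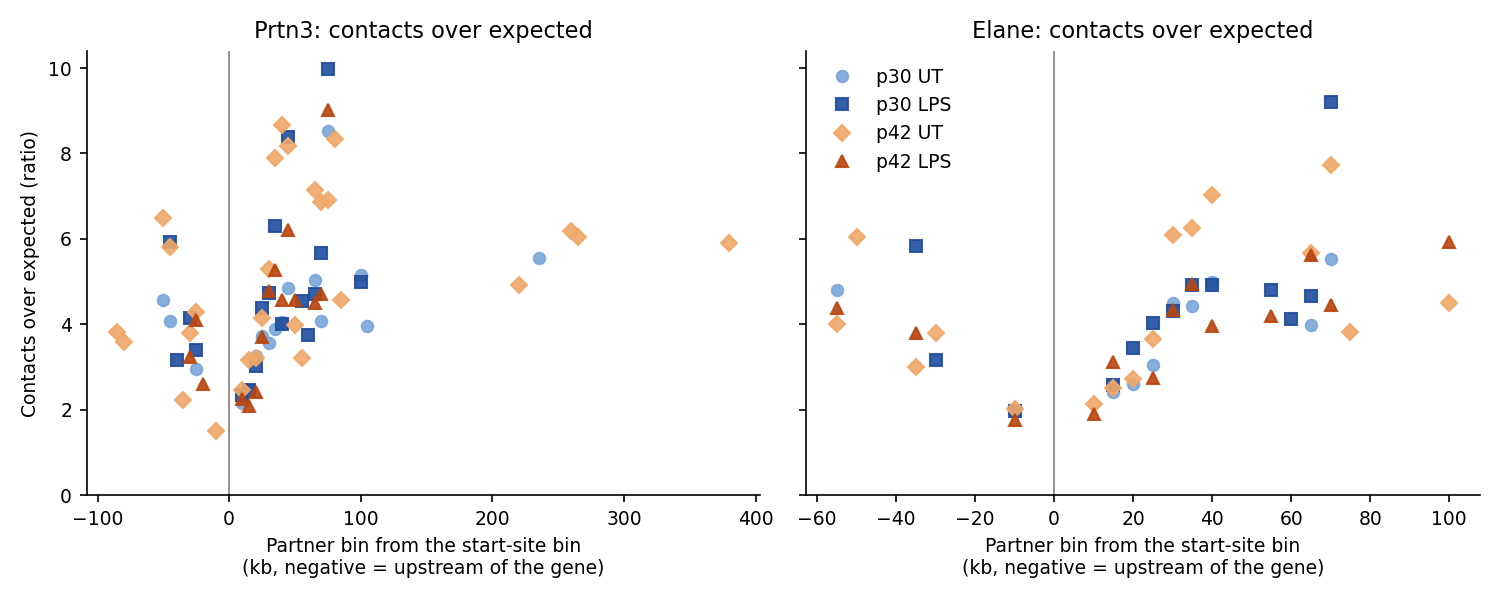
Contacts over expected (ratio) of each loop of Prtn3 (left) and Elane (right) against the distance of the partner bin from the start-site bin (kb, negative upstream), 1 symbol per list. Partners lay mainly downstream, between 10 and 105 kb, and ratios stayed under 10 for both genes.

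Cathepsin G and cathepsin C had no loop in any list, nor did the bins next to their start sites or their gene bodies. The nearest bin of any loop lay 175 to 185 kb from the Ctsg start-site bin (chr14:56340001-56345000). From that of Ctsc (chr7:87925001-87930000) it lay 885 kb away in untreated p30, 155 kb in p30 after LPS, and 145 and 150 kb in p42 without and with LPS. The lists give no reads for bins without a loop, so H3K27ac at these genes is unknown here.

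Cst7, the gene of the cathepsin inhibitor cystatin F, had 3 loops in p30 UT, p30 LPS and p42 LPS and 5 in p42 UT. Its start-site bin (chr2:150410001-150415000) held 3744, 4368, 5044 and 2728 reads in the order of the groups, or 1.56, 1.95, 1.73 and 1.41 times the mean peak bin. The values lay within a narrower range than those of Mpo, and p30 LPS was highest. All 6 partner bins lay downstream, in Apmap, around the start site of the acetyl-CoA synthetase gene Acss1, and beyond it. A single one, 105 kb downstream, was in all 4 lists, with 12, 11, 14 and 9 contacts or 6.03, 5.73, 6.78 and 5.30 times the expected number. These contacts are few. The Acss1 start, 100 kb downstream, was a partner in 3 lists with 11 to 13 contacts. Most contacts overall were with the Apmap bin 35 kb downstream, which was absent from p30 UT and had 12 in the other p30 list and 25 and 14 in the p42 lists.

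Srgn, which encodes the granule proteoglycan serglycin, had 16 loops without and 17 with LPS in p30 cells and 19 and 15 in p42 cells. In lists of equal size it had 16, 17, 16 and 15. All 19 distinct partners lay upstream, and 13 were in all 4 lists, the largest number among the 9 genes. Its start-site bin (chr10:62340001-62345000) held 7289 reads in untreated p30, 9054 in p30 after LPS, 12635 in untreated p42 and 8055 in p42 after LPS. Relative to the mean peak bin, this was 3.03, 4.04, 4.34 and 4.15, so that p30 UT lay below the other 3 lists, which were close to each other.

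The strongest loops of Srgn, and by contacts over expected the strongest of the 9 genes, were with 3 neighbouring bins 35 to 45 kb upstream, inside Kifbp, the gene of a kinesin-binding protein. The bin at 35 kb (chr10:62375001-62380000) had 111 contacts without and 130 with LPS in p30 cells and 193 and 124 in p42 cells, or 13.3, 17.1, 18.5 and 14.6 times the expected number. At 40 kb the ratios were 13.8, 21.1, 20.8 and 17.8, and at 45 kb they were 15.6, 18.7, 22.4 and 18.2. In all 3 bins p30 UT was the lowest list. By comparison, the median over all loops lay between 4.24 and 4.34 in the 4 lists. Nearer to the gene the contacts stood closer to the expected number: the bin 20 kb upstream had 2.55 to 3.88 times. The bins at 10 and 15 kb lie within the annotated span of Srgn and this bin overlaps its end, which has transcripts that start farther upstream than the canonical one, so these partners overlap the gene itself. Farther out, the start sites of Kifbp at 70 kb and of Ddx21, an RNA helicase gene, at 95 kb were partners in all 4 lists. Contacts with the former were 23 in untreated p30, 15 in p30 after LPS, 38 in untreated p42 and 34 in p42 after LPS, or 7.94, 5.57, 11.1 and 11.4 times the expected number. Here p30 LPS was lowest, and both p42 lists lay above both p30 lists.

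**Figure D4:**
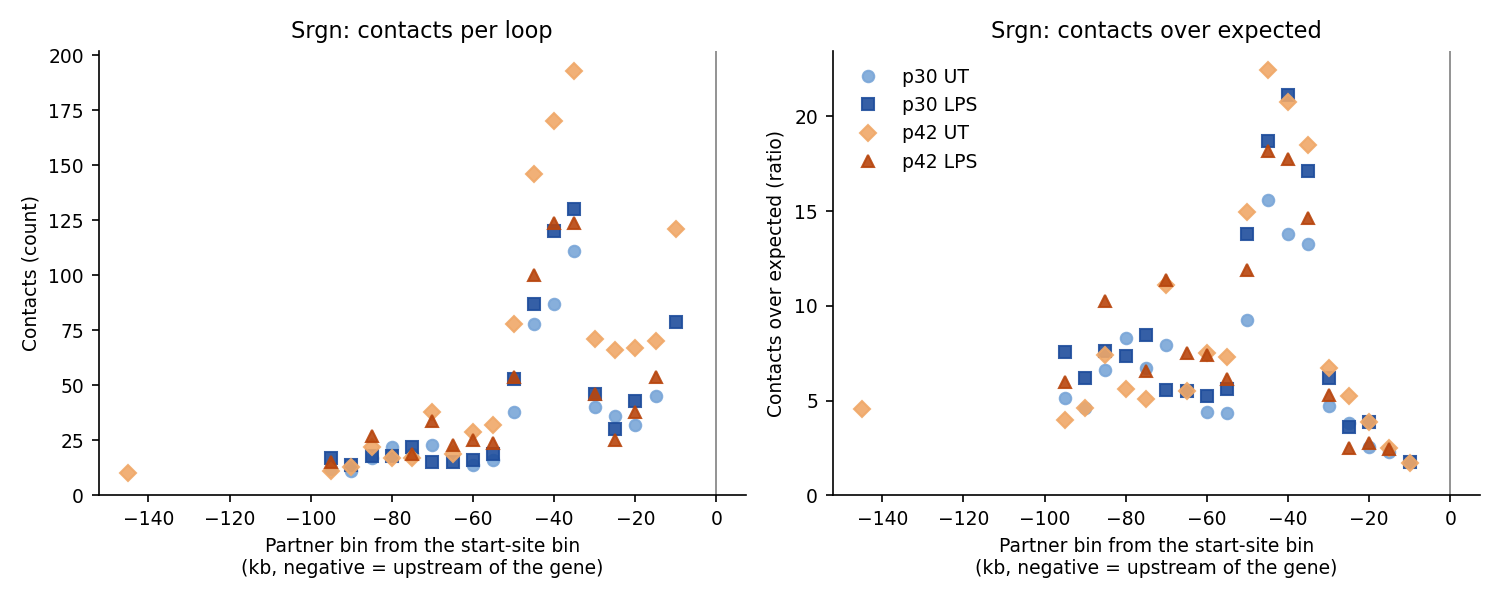
Contacts (left, count) and contacts over expected (right, ratio) of each Srgn loop against the distance of its partner bin from the start-site bin (kb, negative upstream), 1 symbol per list. The peak at 35 to 45 kb upstream reached 22.4 times the expected contacts, while the bins within 25 kb stayed under 6.

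The lysozyme genes lie next to each other on chromosome 10, with start-site bins 10 kb apart. Lyz1 had 1 loop each in p30 LPS, p42 UT and p42 LPS, always with the intergenic bin 10 kb upstream (chr10:117135001-117140000). It had 46, 90 and 68 contacts in these lists, or 2.69, 2.59 and 2.33 times the expected number. No loop was listed in p30 UT. The Lyz1 start-site bin held 953, 2069 and 1512 reads, or 0.426, 0.711 and 0.780 times the mean peak bin, and was thus below the average peak in every list that has it. The partner bin was better covered, at 1.79, 3.10 and 3.31 times the mean. Lyz2 had 3 loops, all in p42 UT, with 11 to 28 contacts, and none remained in the list of equal size. Its strongest partner, 20 kb upstream, was the same intergenic bin. Both genes are copies: 69.0% of the Lyz1 start-site bin aligned to that of Lyz2, with 92.1% identity. Reads that match both bins may have been lost or placed in either one, which was not tested.

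Between the untreated groups, Mpo, Srgn and Prtn3 were called with more contacts in p42 UT than in p30 UT. Mpo differed most, in contacts, in the coverage of its start site and in loop number, while Elane and Cst7 did not pass the test. For each gene, contacts were summed over the loops found in both lists and tested by an exact binomial test against the share over all loops in both lists, with Benjamini-Hochberg adjustment over 7002 genes. Mpo had 827 contacts against 358, a log2 ratio of 0.84 relative to all loops (95% interval 0.66 to 1.03; exact binomial adjusted p = 1.37e-18). For Srgn these were 1040 against 601 (log2 ratio 0.43, 0.28 to 0.58; exact adjusted p = 7.49e-07), and for Prtn3 803 against 513 (0.28, 0.12 to 0.45; exact adjusted p = 0.0122). Elane had 344 against 247 contacts (0.11, -0.13 to 0.36; exact adjusted p = 0.811), and Cst7 had 27 against 23. Thus 3 of the 5 genes tested were higher in p42 UT, against 4.33% of all genes tested. Their median log2 ratio was 0.28, and that of all genes was -0.04. The test calls genes with many contacts more readily, and the shares of all genes, here and below, were not matched on contacts.

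The start-site coverage of Mpo was 1.82-fold higher in p42 UT, the only one of 5 past 1.5-fold, which 3.61% of 7706 genes were. Srgn, at 1.43-fold, also passed when coverage was scaled by the median of peak bins (1.58-fold) or by modelled contacts (1.64-fold). In lists of equal size Mpo had 10 loops against 6, again the only gene of 5 past 1.5-fold and 3 loops, as were 16.1% of 4771 genes. That share is high enough that the loop number of Mpo does not set it apart. Single loops in both lists numbered 6 for Mpo, 9 for Elane, 14 for Prtn3, 16 for Srgn and 2 for Cst7. Of these, 4 had significantly more contacts in p42 UT, against 0.995% of 59069 loops. All 4 were of Mpo, 10, 15, 20 and 30 kb upstream. For the bin 30 kb upstream the log2 ratio was 1.30 (exact adjusted p = 4.87e-06), and it was 1.08 when the expected counts, which take coverage into account, set the share (exact adjusted p = 0.00402). The other 3 loops were not called on that scale. On that scale, the gene's log2 ratio was 0.51 for Mpo (exact adjusted p = 2.44e-06), 0.41 for Srgn and 0.42 for Prtn3. The call of Prtn3 was lost over loops in all 4 lists (log2 ratio 0.21, exact adjusted p = 0.135) and over loops in both lists of equal size (0.21, exact adjusted p = 0.130).

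Between the LPS-treated groups, Mpo was the only one of the 6 genes with a shared loop that passed the test of contacts. It had 390 contacts against 263 (log2 ratio 0.62, 0.39 to 0.85; exact adjusted p = 1.08e-05), which makes 1 of 6 genes tested higher, against 1.84% of 6081 genes. With the share set by expected counts the ratio was 0.08 and the call was lost (exact adjusted p = 1). For Srgn the log2 ratio was 0.16 (-0.0027 to 0.31; exact adjusted p = 0.352), for Prtn3 0.06 (-0.13 to 0.26) and for Elane -0.03 (-0.27 to 0.21). The single Lyz1 loop had 68 against 46 contacts (0.62, 0.06 to 1.19; exact adjusted p = 0.253). When loops of the bins next to the start site were counted too, Lyz1 (0.66, exact adjusted p = 0.0323) and Srgn (0.15, exact adjusted p = 0.0384) were also called. The Lyz1 start-site bin was the only one of 6 past 1.5-fold in coverage, 1.83-fold higher in p42 LPS, as were 1.62% of 6913 genes. With scaling by modelled contacts, however, it was 1.45-fold higher, and Cst7 passed in the other direction (0.572-fold). No gene of 5 was called by loop number, against 26.9% of all genes in either direction. Loops in both lists numbered 7 for Mpo, 10 for Elane, 13 for Prtn3, 1 for Lyz1, 14 for Srgn and 2 for Cst7. None of these single loops was called, against 0.683% of all loops in both lists.

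LPS was accompanied by fewer Mpo contacts in p30 cells. Mpo had 207 contacts in p30 LPS against 331 in p30 UT (log2 ratio -0.63, -0.89 to -0.37; exact adjusted p = 0.000191), and was the only gene of 5 called lower, against 1.00% of 6276 genes. Srgn was the only one called higher, 648 against 556 (0.27, 0.10 to 0.44; exact adjusted p = 0.0458), against 2.06% of genes. The Mpo ratio was -0.0028 with the share set by expected counts (exact adjusted p = 1), and over bins at least 20 kb apart it was -0.53 (exact adjusted p = 0.219). The Srgn ratio was 0.36 on the scale of expected counts (exact adjusted p = 0.00169), while its call was lost over loops in all 4 lists (0.26, exact adjusted p = 0.0789) and in lists of equal size (0.25, exact adjusted p = 0.0785). Elane and Prtn3 had log2 ratios of -0.13 (-0.41 to 0.15) and -0.16 (-0.35 to 0.03). By coverage none of 5 start-site bins passed 1.5-fold, against 2.17% of genes in either direction, the lowest being Mpo at 0.732-fold; with scaling by modelled contacts Srgn passed, at 1.54-fold. By loop number none of 5 was called, against 22.7%. Loops in both lists numbered 5 for Mpo, 8 for Elane, 14 for Prtn3, 15 for Srgn and 2 for Cst7. None of these single loops was called, against 0.302% of all loops in both lists.

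In p42 cells, Mpo and Prtn3 were called with fewer contacts after LPS, and Mpo also lost start-site coverage. Mpo had 389 contacts in p42 LPS against 904 in p42 UT (log2 ratio -0.75, -0.92 to -0.57; exact adjusted p = 7.71e-15) and Prtn3 467 against 817 (-0.34, -0.50 to -0.17; exact adjusted p = 0.00535), which makes 2 of 6 genes, against 2.08% of 6774 genes. Both were also lower relative to expected counts, by -0.42 (exact adjusted p = 0.000289) and -0.28 (exact adjusted p = 0.0271), and on that scale Srgn was called lower too (-0.21, exact adjusted p = 0.0490). The Prtn3 call was lost over bins at least 20 kb apart (-0.32, exact adjusted p = 0.0687) and in lists of equal size (-0.26, exact adjusted p = 0.0800). Elane had a log2 ratio of -0.26 (-0.46 to -0.06; exact adjusted p = 0.167), Srgn one of -0.02 (-0.16 to 0.12) and Lyz1 one of 0.07 (-0.41 to 0.54). The Mpo start-site bin had 0.548-fold the relative coverage, the only one of 6 past 1.5-fold, as were 1.06% of 7419 genes in this direction. Elane and Prtn3 also passed with scaling by the median of peak bins (0.640-fold and 0.610-fold), and with scaling by modelled contacts they did so together with Cst7 (0.575-fold, 0.548-fold and 0.649-fold). Loops in both lists numbered 8 for Mpo, 12 for Elane, 14 for Prtn3, 1 for Lyz1, 15 for Srgn and 3 for Cst7. Of these, 2 were called lower, against 0.212% of 59847 loops. They were the Mpo loops 30 and 15 kb upstream (52 against 158 contacts, exact adjusted p = 0.000708, and 62 against 157, exact adjusted p = 0.0231). With the share set by expected counts neither loop was called (exact adjusted p = 0.0752 and 0.809). None of 5 genes was called by loop number, against 19.7% in either direction. The comparisons share lists: p42 UT served in the first and the last, so that a high value in that list enters both.

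**Figure D5:**
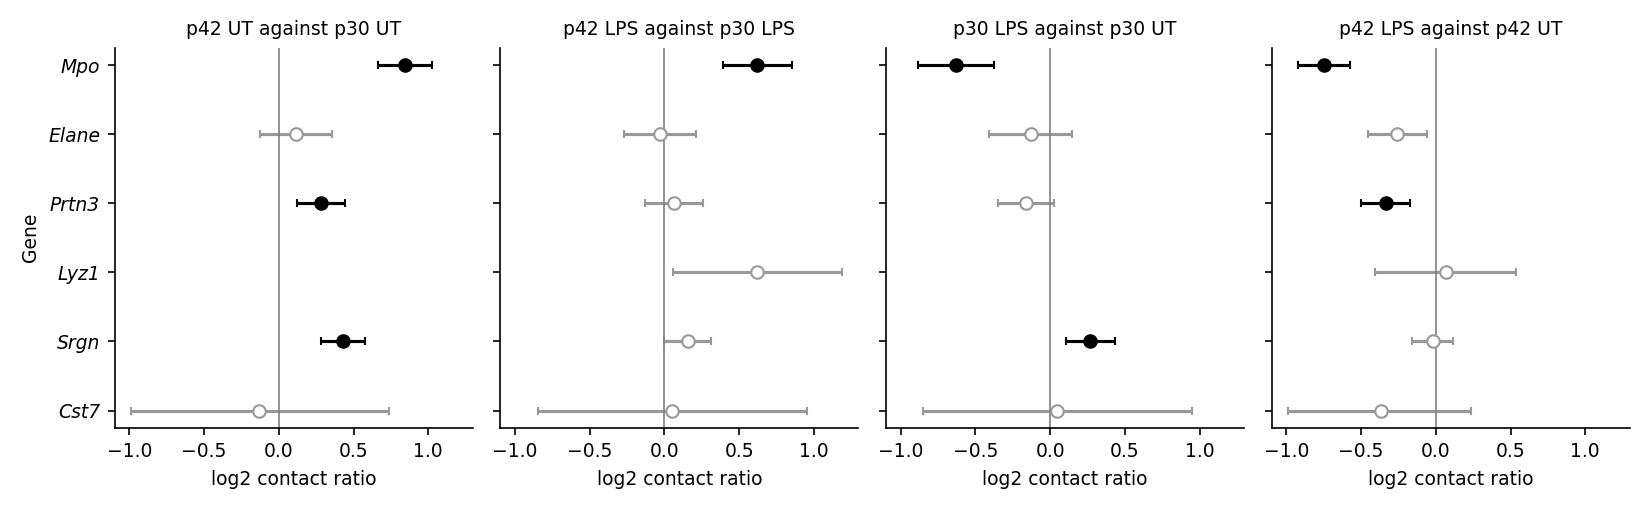
Log2 ratio of contacts over loops in both lists, relative to all such loops, for each gene with a shared loop in the 4 comparisons; bars are exact 95% intervals and cover counting error only. Filled points have an adjusted p under 0.05: Mpo in all 4 comparisons, Prtn3 in 2 and Srgn in 2.

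Whether the change with LPS differed between the isoforms was tested over loops in all 4 lists with an exact conditional test per gene. The test was added after the other results were seen. None of the 5 genes with such loops was called, against 0.913% of 5040 genes. For Mpo the log2 change was -0.66 for p30 and -0.74 for p42, which differ by -0.09 (exact adjusted p = 1). Srgn had the lowest p of the 5, with a change of 0.26 in p30 and 0.02 in p42 and a difference of -0.24 (exact p = 0.0386, adjusted p = 0.533). Relative to expected counts, which was not tested, the differences were -0.43 for Mpo, -0.49 for Elane, -0.54 for Prtn3, -0.64 for Srgn and -0.28 for Cst7. The median of all 5040 genes on that scale was -0.39, with quartiles of -0.59 and -0.14.

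Among genes with at least 40 loops over the 4 lists and more than 1 Mb away, the shares of loops over the lists were closest to those of Elane for Stat4 (distance 0.0106 over 4 shares, 1076 genes compared), of Prtn3 for Axin1 (0.0070) and of Srgn for Polr1c (0.0083, 1114 genes). Likeness on 4 values was common, since 111, 179 and 162 genes lay within 0.05. The other genes of the 9 had fewer loops and were not compared.

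Of 28 further genes of azurophil granules and lysosomes, 15 and 17 had a loop in p30 without and with LPS, and 23 and 17 in p42. By contacts, 2 of 12 tested were higher and none lower in p42 UT against p30 UT, beside 4.33% and 2.49% of all genes. In p42 LPS against p30 LPS, 1 of 12 was higher and 1 lower, beside 1.84% and 3.73%. By contacts, none was called in either direction with LPS, of 11 tested in p30 and of 17 in p42, beside 3.06% and 2.57% of all genes. The gene called higher in p42 by loop number in both isoform comparisons was Rab27a, a small GTPase of granule release, where 16.1% (UT) and 9.46% (LPS) of all genes were called higher. In lists of equal size it had 8 loops without and 7 with LPS in p30 cells and 13 and 17 in p42 cells. Of 8 regulators of granule genes, 6 had a loop in p30 UT, p42 UT and p42 LPS and 5 in p30 LPS. By contacts, 2 of 6 tested were higher in p42 UT and 2 of 5 in p42 LPS than in the p30 lists, beside 4.33% and 1.84% of all genes, and none was lower. Cebpe, a CEBP factor of granulocyte maturation, was called higher by loop number in both, beside the same shares of 16.1% and 9.46%, with 5 and 1 loops in the p30 lists and 19 and 15 in the p42 lists of equal size, UT first.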

How the data were processed

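H3K27ac HiChIP libraries of 8 samples, 2 per group, were made by the authors. According to the study's methods and processing notes, reads were mapped to mm39 with BWA 0.7.17, ligation products were parsed and deduplicated with pairtools, and loops were called with FitHiChIP. The deposited lists are in 5 kb bins, with each q-value under 0.01. The authors deposited 1 list per group; how replicates were pooled is not given in the sources used here. The deposited contacts and bin coverage are raw counts, the deposited expected counts come from the caller's model of distance and coverage, the probability of a contact, also deposited, is a fraction, the deposited coverage bias is a ratio to the mean of peak or other bins, and the p-value and q-value are those of the authors' caller. The caller lists significant pairs alone, and its correction for coverage can remove part of a difference in contacts where H3K27ac differs.

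Modelled contacts were taken to be the expected count over the probability, and mean peak-bin coverage as coverage over bias. Start sites were canonical transcripts of GENCODE M39 on GRCm39. All 21 chromosomes matched, and no last bin lay beyond a chromosome end by more than 1 bin. Genes were called by loop number past 1.5-fold (1 added) and 3 loops, with at least 5 loops in both lists together, and by contacts at an adjusted p under 0.05. Intervals are exact (Clopper-Pearson, 95%). Python 3.11.15, SciPy 1.17.1, pandas 2.3.3, Biopython 1.88 and BLAST 2.17.0 were used. On simulated contacts, the gene test recovered 60.5 to 65.5% of 200 genes changed 2-fold, and the loop test 4 to 13.5% of 200 loops. The test of the difference between LPS changes recovered 47.5% of 200 genes among 5040. The simulated contacts had counting error alone, with no spread between replicates. The genes, lists, motifs and alternatives were chosen with earlier results of these data known; the test of LPS changes and the contacts in lists of equal size were added after these results were seen. Named were all 9 genes, their strongest partner bins, some of the constant ones, and start sites in partner bins of at least 3 lists. Other partners were named after their values were seen. Upstream bases of Lyz2 and Srgn overlap exons of other transcripts and are not shown.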

Additional observations from a re-analysis of the deposited data

Results flagged for a closer look

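The relative coverage of 2 start-site bins moved in opposite directions with LPS in the isoforms, which was not tested, since there is 1 pooled list per group. For Srgn, the log2 change was 0.42 for p30 and -0.06 for p42, which differ by -0.48. For Cst7, it was 0.33 for p30 and -0.30 for p42, which differ by -0.63. In reads, the Srgn bin went from 7289 to 9054 in p30 and from 12635 to 8055 in p42, and the Cst7 bin from 3744 to 4368 and from 5044 to 2728.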

How the results depend on the processing

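No paired analysis was possible because each list pools both replicates of a group; for the same reason no replicate could be left out. Of 72 recomputed values for the genes together, 51 stayed within the counting interval, 19 moved and 2 reversed; the cause was not tested. By loop number, the log2 ratio of p42 UT to p30 UT was 0.26 in lists of equal size and 1.00 at q under 1e-05 of the deposited lists, and that of p42 LPS to p42 UT was -0.12, and -0.75 at q under 0.001 and -0.90 at q under 1e-05. By contacts over shared loops, the log2 ratios were 0.44 for p42 UT against p30 UT, 0.20 for p42 LPS against p30 LPS, -0.07 for p30 LPS against p30 UT and -0.30 for p42 LPS against p42 UT. With the share set by modelled contacts these became 0.72, 0.021, 0.19 and -0.51; this scaling shifts every gene by 0.28, -0.18, 0.26 and -0.21. With the share set by expected counts, p42 LPS against p30 LPS reversed to -0.11 and p30 LPS against p30 UT became 0.31, and over bins at least 20 kb apart the latter was 0.057. The median log2 ratios of start-site coverage, in the same order, were 0.36, 0.11, -0.24 and -0.39. Over the median of listed peak bins they were 0.51, 0.053, -0.21 and -0.56, and over modelled contacts 0.56, -0.23, -0.038 and -0.71. With 1 bin on each side, the last 3 were 0.080, -0.18 and -0.20. Of 150 values for single genes, 133 kept their side of the threshold, 9 lost a call, 8 gained one and 0 reversed. With modelled contacts Elane gained a call in p42 UT against p30 UT (0.40) and in p42 LPS against p42 UT (-0.47), and Srgn in the latter (-0.23; -0.21 with expected counts). With 1 bin on each side, which for Elane takes in the Prtn3 start, Elane gained the same calls (0.21 and -0.28), and Lyz1 (0.66) and Srgn (0.15) gained one in p42 LPS against p30 LPS. Mpo kept its call in 7 of 7 alternatives in p42 UT against p30 UT and in p42 LPS against p42 UT, and Srgn in 7 of 7 in p42 UT against p30 UT. Depth limits the genes with few contacts: for Cst7 in p42 UT against p30 UT the interval ran from -0.99 to 0.74 on the log2 scale.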
